A study of Mus musculus with 10 samples.

Results

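Hesx1, Pax6, Sox1, Sox11, Neurog2, Nes, Tubb3, Map2 and Celsr3 are 9 genes of the neural plate, the forebrain and the early neuron, and their RNA was followed in mouse embryonic stem (ES) cells that lack Tet1, Tet2 or both. The genes were chosen by earlier values of the comparison of double knockout with wild-type cells on these same arrays, so their values in that comparison are given below as a description, with no test. All probes that carry one of these gene names were taken, which gave 13 of the 39429 probes of the array. Of these, 11 bore the gene's own name, and the other 2 bore Mtap2, an older name of Map2, to which they were matched by RefSeq accession. In at least 1 group of genotype and sex, 12 of the 13 probes were well above background on every array, and each gene is represented by its brightest such probe.

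In the embryo, neural fate begins when cells of the epiblast switch on Sox1 and later Pax6, and the front of the neural plate is set apart by repressors such as Hesx1. Proneural factors, Neurog2 among them, then commit progenitors to neurons, which turn on SoxC factors such as Sox11 and cytoskeletal genes such as Tubb3 and Map2. ES cells represent the stage before this choice and carry traces of such transcripts. Tet1 and Tet2 are dioxygenases that oxidise 5-methylcytosine in DNA, and Tet1 binds DNA rich in CpG.

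Cy3- and Cy5-labelled RNA was hybridised on 10 two-colour oligonucleotide arrays, and the study asked which genes respond when one or both enzymes are missing. The Tet1/Tet2 double knockout (DKO) was represented by 4 lines, 51 and 61 from males and 60 and 59 from females. The Tet2 knockout (T2KO) was a single male line, 16, the Tet1 knockout (T1KO) 2 male lines, 65 and 99, and the wild type (WT) 4 lines, 6 and 92 from males and 7 and 94 from females. All came from mice of a mixed C57/BL/6 background and were grown with LIF on irradiated feeder fibroblasts, from which they were separated on gelatin before RNA was taken. Each DKO line was labelled with Cy5 and set against a WT line of its sex in Cy3, in the pairs 51 with 6, 61 with 92, 60 with 7 and 59 with 94. T2KO 16 in Cy5 was set against T1KO 65 in Cy3, and T1KO 99 in Cy3 shared its arrays with a sample whose genotype the labels call false, and which enters no comparison. No dye was swapped, so that every DKO or T2KO value comes from Cy5 and every WT or T1KO value from Cy3. With 1 T2KO line, that genotype cannot be told apart from the line, and the male DKO/WT, female DKO/WT and single-knockout arrays each lay on 1 of 3 slides.

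A level below is the log2 normalised intensity of a gene's probe in 1 line, averaged over repeat arrays, and a ratio is log2 of Cy5 over Cy3 within a pair. Levels of different probes are not set against each other. Gene spots well above background made up 62.6 to 69.0% in Cy5 and 55.2 to 61.5% in Cy3, and no gene spot was saturated. Log ratios of all tested genes correlated at 0.923 to 0.957 between repeat arrays and at 0.194 to 0.475 between DKO/WT pairs, and the ratios of a member differed by at most 0.33 between repeat arrays. The Tet1 probe read 10.52 to 11.07 in the lines labelled as lacking Tet1, against 12.78 to 13.12 in the others, and the Tet2 probe 9.41 to 10.12 against 11.43 to 12.06. All 12 ES cell markers were well above background on every array of the labelled lines, and so were all 17 feeder fibroblast markers. A change in a few differing cells and a change in all cells cannot be told apart in such bulk RNA.

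Sequences are shown first for the promoters of the 3 members whose levels in all 4 DKO lines lay below those in all 4 WT lines, since the enzymes that were removed act on CpG sites. Each line gives the 250 bases before the RefSeq start site on GRCm38 from 5′ to 3′ on the gene's strand, with CpG dinucleotides in capitals. Hesx1 lies at chr14:27000112-27000361 on the plus strand, Sox11 at chr12:27342719-27342968 on the minus strand and Celsr3 at chr9:108825795-108826044 on the plus strand.
Hesx1: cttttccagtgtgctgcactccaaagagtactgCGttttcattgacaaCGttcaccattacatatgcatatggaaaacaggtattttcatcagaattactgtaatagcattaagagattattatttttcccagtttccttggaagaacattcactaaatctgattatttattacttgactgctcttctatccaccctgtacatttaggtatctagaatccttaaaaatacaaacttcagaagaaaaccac
Sox11: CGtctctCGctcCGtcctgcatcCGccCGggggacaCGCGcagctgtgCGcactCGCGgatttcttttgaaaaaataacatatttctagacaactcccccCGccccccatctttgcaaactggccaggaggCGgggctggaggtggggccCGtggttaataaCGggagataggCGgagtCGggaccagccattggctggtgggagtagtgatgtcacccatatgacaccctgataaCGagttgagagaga
Celsr3: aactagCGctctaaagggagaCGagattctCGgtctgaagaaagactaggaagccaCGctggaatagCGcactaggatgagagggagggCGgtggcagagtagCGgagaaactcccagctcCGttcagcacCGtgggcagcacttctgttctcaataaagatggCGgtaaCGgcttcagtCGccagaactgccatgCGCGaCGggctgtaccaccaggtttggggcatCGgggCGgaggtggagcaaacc

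The Hesx1 window held 2 CpG and 34% G or C, and the Sox11 and Celsr3 windows held 17 CpG and 58% each. Among 32841 mouse promoter windows of this length the median was 6 CpG, with quartiles of 2 and 16, and 81.2% held at least 2 CpG while 23.5% held at least 17. All 9 members matched the table, with 10 windows, since Pax6 has 2. The other windows held 8 CpG for Neurog2, 15 for Nes and for each window of Pax6, 21 for Tubb3, 29 for Sox1 and 34 for Map2. Hesx1 and Celsr3, the members with the lowest ratios in DKO over WT, thus stood on opposite sides of the median promoter. CG was counted as the letters read, its reverse complement being the same, and no methylation was measured on these arrays.

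**Figure D1:**
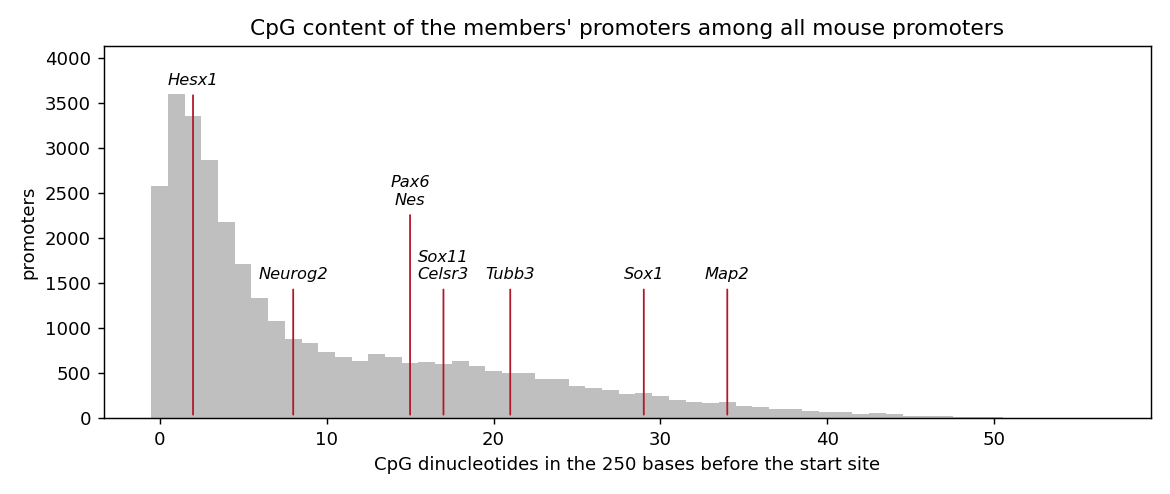
Grey bars count mouse promoters (y axis) by the number of CpG dinucleotides in the 250 bases before the start site (x axis), and red lines mark the members. Hesx1, with 2, lies among the CpG-poor promoters, and Sox11 and Celsr3, with 17 each, lie above the median of 6.

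Hesx1, a homeobox repressor needed for the forebrain and the pituitary, was the member with the lowest ratio in DKO over WT. Its level was 8.77, 7.70, 8.22 and 8.06 in DKO lines 51, 61, 60 and 59, against 9.86, 9.75, 9.31 and 9.61 in WT lines 6, 92, 7 and 94. The ratio averaged -1.45 ± 0.46 (SD, n = 4 pairs), a 2.73-fold lower signal, and every pair lay between -2.05 and -1.09. T2KO 16, which keeps Tet1, read 10.13, and the T1KO lines 99 and 65, which keep Tet2, read 9.20 and 8.06. All 6 lines without Tet1 therefore lay below all 5 lines with it, with T1KO 99 at 9.20 and WT 7 at 9.31 as close neighbours. Ratios of this probe on repeat arrays differed by up to 0.14, which does not gauge differences in level between lines or slides. The probe lies on mm9 at chr14:27815304-27815363.

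Celsr3, an adhesion receptor of the planar polarity pathway that guides axon tracts in the forebrain, followed the same order of lines. Its level was 8.04, 8.24, 7.89 and 8.22 in DKO lines 51, 61, 60 and 59, against 9.41, 9.51, 9.37 and 9.15 in WT lines 6, 92, 7 and 94. The mean ratio was -1.26 ± 0.24 (SD, n = 4 pairs), 2.40-fold lower. T2KO 16 read 9.20, and T1KO 99 and 65 read 8.66 and 8.20. The highest line without Tet1 stood at 8.66 and the lowest with Tet1 at 9.15. Ratios of this probe on repeat arrays differed by up to 0.15, which does not gauge differences in level between lines or slides. Hesx1 and Celsr3 were the 2 members of 9 in which all lines without Tet1 lay below all lines with it, an order that 0.847% of all tested genes showed. The DKO and WT lines of that order were those on which the genes were chosen, and only the places of the T1KO and T2KO lines add to it.

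Tubb3, the tubulin that marks new neurons, had levels of 9.83, 9.32, 10.28 and 10.15 in DKO lines 51, 61, 60 and 59, against 10.82, 9.73, 10.83 and 10.67 in WT lines 6, 92, 7 and 94. Lines overlapped between the genotypes, through WT 92 at 9.73, but within each pair the DKO line was lower, by a mean of -0.62 ± 0.26 (SD, n = 4 pairs). T2KO 16 read 10.42, within the WT range, and T1KO 99 and 65 read 9.46 and 8.84, below every WT line. The lowest level of all 11 lines was thus in a T1KO line and not in a DKO line.

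Sox11, a SoxC transcription factor of newly born neurons, showed another order. Levels were 8.75, 8.42, 8.36 and 9.02 in DKO lines 51, 61, 60 and 59, against 10.16, 9.52, 9.40 and 9.54 in WT lines 6, 92, 7 and 94. Its ratio averaged -1.02 ± 0.37 (SD, n = 4 pairs), 2.02-fold lower, and the groups did not overlap. T2KO 16 read 9.33, just below the lowest WT line at 9.40, and T1KO 99 and 65 read 10.06 and 9.74, among the WT lines. Every Cy5 line (DKO and T2KO) thus lay below every Cy3 line (T1KO and WT) on this probe, so the split also runs between the dyes, and DKO and T1KO lines were never read in the same dye. The second Sox11 probe, which lies at chr12:28019541-28019600 while the first lies at chr12:28020087-28020146 on mm9, gave a mean ratio of -1.04, with 7.58 to 8.06 in DKO lines, 8.58 in T2KO 16, 9.39 and 8.89 in T1KO lines and 8.47 to 9.18 in WT lines. On it T2KO 16 lay within the WT range and the DKO lines below it.

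Neurog2, the bHLH factor that drives cortical neurogenesis, was the single member higher in DKO lines. It read 7.20, 7.29, 7.09 and 7.14 in DKO lines 51, 61, 60 and 59, against 6.39, 6.52, 6.50 and 6.45 in WT lines 6, 92, 7 and 94. The probe was not well above background on any of the 6 WT or 4 T1KO arrays, and it was on all 6 DKO and both T2KO arrays. The WT value is therefore near the floor, and the size of the difference is uncertain. Taking each WT array at its lowest signal well above background, a mean of 6.67, Neurog2 read 1.43-fold higher in DKO lines. This is not a lower limit, since Neurog1 read 6.81 to 6.93 in WT lines while well above background on no WT array. T2KO 16 read 6.97 and T1KO 99 and 65 read 6.58 and 6.65, so the split also runs between the dyes. In all, 273 genes were well above background on all 8 Cy5 arrays and on none of the 10 Cy3 arrays of labelled lines. Of these 273 genes, 116 (42.5%) had risen and 0 had fallen in DKO over WT by limma at an adjusted p under 0.05. Their median was 0.33 in DKO over WT and 0.32 in T2KO over T1KO. Neurog2 was one of them, and like them it passed the filter on dim probes only through the Cy5 lines. The part of the dye in its values was not tested.

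Nes, an intermediate filament of neural progenitors, varied between lines more than between genotypes. It read 10.80, 11.55, 10.97 and 11.41 in DKO lines 51, 61, 60 and 59, against 11.60, 11.62, 11.07 and 11.47 in WT lines 6, 92, 7 and 94, and the groups overlapped. The pair of lines 51 and 6 had a ratio of -0.80, while the other pairs lay between -0.10 and -0.05. T2KO 16 read 10.82, and T1KO 99 and 65 read 10.80 and 11.51. Fibroblasts also express Nes, and the median ratio of the feeder fibroblast markers was -0.08, -0.45, 0.91 and -0.03 in the pairs 51/6, 61/92, 60/7 and 59/94. Their summed level on the log2 scale was 17.76 to 18.01 in DKO, 17.78 in T2KO, 17.94 to 18.01 in T1KO and 17.53 to 18.31 in WT lines. The part of feeder RNA in the Nes values was not tested.

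Pax6, the paired homeobox factor of the cortex and eye, has 2 probes at different places of the gene, whose sequences are given 5′ to 3′. The files hold no exon annotation, and the features named here come from general knowledge of the gene. The tested probe, at chr2:105536454-105536513 on mm9, lies at the end of the coding sequence, whose stop codon is in capitals. The other spans chr2:105524098-105524949, more than its own length, and its capitals mark the alternatively spliced exon of the paired domain.
Pax6, end of the coding sequence: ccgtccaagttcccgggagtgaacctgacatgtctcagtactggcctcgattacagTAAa
Pax6, alternative exon: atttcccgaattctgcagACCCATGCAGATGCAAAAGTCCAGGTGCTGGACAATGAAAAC

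The alternative exon probe was not well above background on any array of the labelled lines. The tested Pax6 probe read 7.13, 7.12, 7.03 and 6.88 in DKO lines 51, 61, 60 and 59, against 7.90, 7.14, 7.32 and 7.07 in WT lines 6, 92, 7 and 94. T2KO 16 read 7.59, and T1KO 99 and 65 read 6.98 and 6.99, near the floor. The probe was well above background on only 2 of the 4 T1KO arrays. Every pair had a negative DKO over WT ratio, from -0.77 to -0.02, with a mean of -0.32 ± 0.33 (SD, n = 4 pairs), and the lines overlapped. WT 6 and T2KO 16 were the only lines above 7.5 among the 11.

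Sox1, the earliest factor of the neural plate, had a mean ratio of 0.06 ± 0.15 (SD, n = 4 pairs), with DKO levels of 7.56 to 7.79, a T2KO level of 7.61, T1KO levels of 7.47 and 7.39 and WT levels of 7.50 to 7.71. Its second probe cleared the background on 5 of 6 WT arrays and no T1KO array, and had ratios of -0.25 to -0.08 in the pairs, so the probes disagreed in sign in 3 of 4 pairs, all but 60/7. Map2, a microtubule protein of dendrites, had ratios of -0.08, 0.02, 0.88 and -0.42 in the pairs 51/6, 61/92, 60/7 and 59/94, a mean of 0.10 ± 0.55 (SD, n = 4 pairs). The spread came from DKO 60, at 8.13, and WT 94, at 8.04, while the other 9 lines lay at or below 7.67. The second Map2 probe was well above background on every DKO and T2KO array but on 1 WT array and no T1KO array, and its ratios in the 4 pairs ran from -0.19 to 0.43, the highest again in the pair 60/7. The pair with the highest Map2 ratio was also the one with the highest feeder marker median, 0.91, and the part of feeder RNA in it was not tested.

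**Figure D2:**
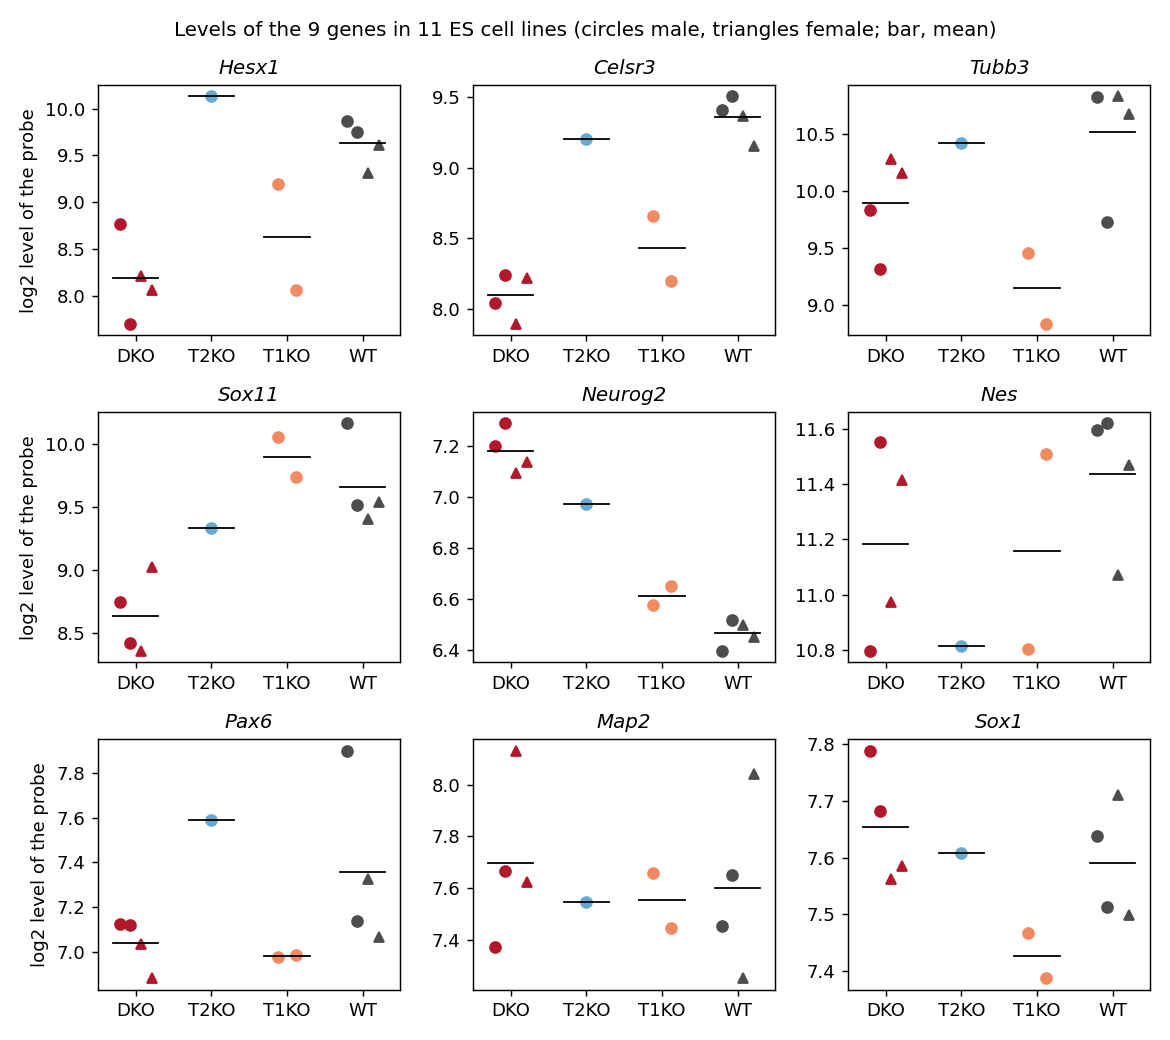
Each panel gives the log2 level of a gene's tested probe (y axis) in DKO, T2KO, T1KO and WT lines, with circles for male and triangles for female lines and a bar at the mean. Hesx1 and Celsr3 are low in DKO and T1KO lines, Sox11 is lower and Neurog2 higher in the Cy5 groups DKO and T2KO than in the Cy3 groups T1KO and WT. The scale differs between panels.

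Levels in all DKO lines lay below all WT lines for 3 of the 9 members and above them for 1, against 5.95% and 7.54% of all genes. These counts restate the choice of the genes, and nothing is read from them. Over all 20666 tested genes, 1.74% had fallen and 2.90% had risen in DKO over WT by limma at an adjusted p under 0.05, 959 in all. None of these calls was kept when any 1 pair was left out, when an intensity trend was put into the spread, or when sex was a covariate. For Hesx1, Sox11, Tubb3 and Celsr3 every pair had a negative ratio. Their means therefore had to stay negative with any 1 pair left out, and nothing is read from that.

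The hybridisation of T2KO 16 against T1KO 65 used lines on which the genes were not chosen. T2KO cells had higher Hesx1, by 2.08 ± 0.38 on the log2 scale (SE; 95% interval 1.04 to 3.11), higher Tubb3, by 1.59 ± 0.23 (0.96 to 2.21), and higher Celsr3, by 1.01 ± 0.22 (0.40 to 1.61). None of the 9 members passed an adjusted p under 0.05 in limma (adjusted p = 0.264, 0.264 and 0.277 for these 3 genes), and neither did any other gene (0%). At an unadjusted p under 0.05, 3 of 9 members passed, against 13.1% of all genes. The single pair was assumed to vary like the DKO/WT pairs, on which the genes were chosen. The SE, intervals and p-values are therefore not independent of the choice, and only the differences rest on other lines. With every array kept and the pair as a random block, which takes repeat arrays as further observations, the same 3 members passed, against 2.70% of all genes. These sizes depended on the background model. With normexp fitted on all spots, the differences were 0.26 for Hesx1, 0.29 for Tubb3 and 0.0893 for Celsr3, and those of the other 6 members lay between -0.19 and 0.0188.

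The other members differed less between T2KO 16 and T1KO 65. Sox11 differed by -0.41 ± 0.24 (SE), Nes by -0.69 ± 0.28, Pax6 by 0.60 ± 0.29, Neurog2 by 0.32 ± 0.12, Sox1 by 0.22 ± 0.14 and Map2 by 0.10 ± 0.46. The intervals of these 6 differences all included 0. For Sox11 the interval ran from -1.06 to 0.24, and for Nes from -1.44 to 0.06.

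Loss of Tet1 alone was compared with male WT cells within Cy3, with the WT lines being those of the male DKO/WT pairs. Hesx1 differed by -1.18 ± 0.36 (SE; adjusted p = 0.295), Tubb3 by -1.13 ± 0.39 (adjusted p = 0.327) and Celsr3 by -1.03 ± 0.18 (adjusted p = 0.196) in T1KO minus male WT. Sox11 differed by 0.06 ± 0.23, with an interval from -0.52 to 0.64. Pax6 differed by -0.54 ± 0.26, Nes by -0.45 ± 0.26 and Sox1 by -0.15 ± 0.12. Neurog2 differed by 0.16 ± 0.11 and Map2 by 0.00035 ± 0.27, and the intervals of all these genes included 0. By limma 0 members and 0% of all genes passed an adjusted p under 0.05, and at an unadjusted p 3 of 9 members passed, against 13.7% of all genes. The sizes moved by over 1.5 times with single lines, to -0.61 for Hesx1 without T1KO 65, and to -0.58 and -1.67 for Tubb3 without WT 6 and WT 92. With normexp fitted on all spots they were -0.53 for Hesx1, -0.60 for Tubb3 and -0.67 for Celsr3. The group and the slide cannot be told apart here.

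Male DKO lines were set against T2KO 16 within Cy5, with the DKO lines again those of the choice. Hesx1 differed by -1.90 ± 0.45 (SE; adjusted p = 0.331), Celsr3 by -1.06 ± 0.20 (adjusted p = 0.323), Tubb3 by -0.85 ± 0.24 (adjusted p = 0.338), Pax6 by -0.47 ± 0.14 (adjusted p = 0.342) and Sox11 by -0.74 ± 0.32 (adjusted p = 0.422) in male DKO minus T2KO. No member was among the 2 genes (0.00968%) that passed an adjusted p under 0.05 in limma, and at an unadjusted p 4 of 9 members passed, against 12.7% of all genes. Pax6 lay at -0.29 with normexp fitted on all spots and at -1.09 with the scanner's own signals. With the dye held constant, Hesx1, Celsr3 and Tubb3, and by less Pax6, were therefore lower in the lines without Tet1 in both comparisons. For Pax6 the T1KO levels were near the floor, with only 2 of 4 T1KO arrays well above background. Its value in T1KO minus male WT ran from -1.05 to -0.16 under the alternatives. None of these genes was called past the threshold. The ES cell markers moved beside these values in male DKO minus T2KO, with a median of -0.49 and 2 of 12 above 0, and their summed level was 18.49 and 19.18 in the male DKO lines and 19.26 in T2KO 16. In T1KO minus male WT their median was -0.06, with 4 of 12 above 0, and their part in either comparison was not tested. As both comparisons share lines with DKO over WT, neither their directions nor their counts of members are independent of it. Nothing is read from the counts at an unadjusted p.

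**Figure D3:**
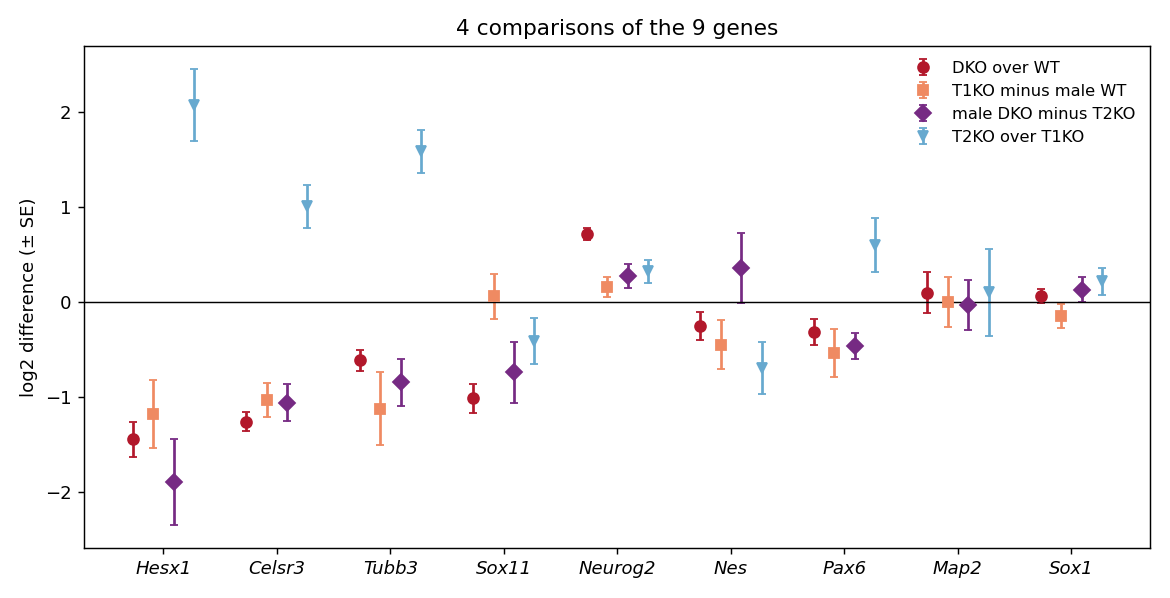
Points give the log2 difference (y axis) of each member in 4 comparisons, and bars the SE of the fit. Hesx1, Celsr3 and Tubb3, and Pax6 with smaller values, lie below 0 in the 3 comparisons that remove Tet1 from the first group. All of them lie above 0 in T2KO over T1KO, while Sox11 lies near 0 in T1KO minus male WT.

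The ratio in male pairs was compared with that in female pairs, and sex and slide cannot be told apart. The difference between male and female DKO over WT was -0.25 ± 0.38 for Hesx1, -0.47 ± 0.24 for Sox11, -0.17 ± 0.23 for Tubb3, -0.11 ± 0.22 for Celsr3 and 0.15 ± 0.12 for Neurog2 (SE). By limma 0 members passed an adjusted p under 0.05 (0% of all genes), and 0 passed an unadjusted p under 0.05, against 5.15% of all genes. For Hesx1 the interval ran from -1.29 to 0.78.

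Other genes of the neural pathway, on 7 lists with 135 genes of which 114 were tested, gave few calls. In DKO over WT 5 of the 114 rose and 0 fell, while 2.90% of all genes rose and 1.74% fell. Of the 5, Six6, Pax2 and Prickle2 passed the filter on dim probes only through the Cy5 lines. Neurog1, on the same lists and with the same pattern, had a mean ratio of -0.17 and no call. As these genes were let in by the Cy5 lines, nothing is read from the count or from the calls of Six6, Pax2 and Prickle2. The part of the dye in their values was not tested. Elavl4 and Celsr2 were well above background on every array. Over the 114 genes the median ratio was 0.04 against 0.02 for all genes. Six6, a forebrain and eye factor, had a mean ratio of 1.09 ± 0.16 (SE). Pax2, a midbrain and kidney factor, had 1.26 ± 0.15, with no value in the pair of lines 60 and 7. Elavl4, a neuronal RNA-binding protein, rose by 0.50 ± 0.08 (SE; limma adjusted p = 0.0400). In planar polarity, Celsr2, a relative of Celsr3, rose by 0.41 ± 0.06 (limma adjusted p = 0.0348), and Prickle2 had a mean ratio of 0.63 ± 0.07. Six6, Pax2 and Prickle2 were, like Neurog2, well above background on no Cy3 array and on every Cy5 array. With WT arrays taken at their lowest signal well above background, DKO lines read 1.64-fold higher for Six6 and 1.31-fold higher for Prickle2. As for Neurog2, these are not lower limits, and no such value was computed for Pax2, which lacks a pair. Celsr2 read 7.93 to 8.19 in DKO, 7.90 in T2KO, 8.22 and 8.33 in T1KO and 7.56 to 7.71 in WT lines, so that every knockout line lay above every WT line.

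By role, 25 of 36 neural plate and forebrain transcription factors were tested, with 2 rises (both seen in Cy5 alone), 0 falls and a DKO over WT median of 0.14, from Sox4 at -0.51 to Pax2. The pituitary factors and Groucho partners of Hesx1 had 9 of 10 tested, with no call and a median of 0.13, from Tle1 at -0.30 to Lhx3 at 0.43. The proneural factors and Notch pathway had 18 of 23 tested, with no call and a median of -0.16, from Insm1 at -0.77 to Notch2 at 0.45. Of these 18 values 3 lay above 0, against 61 of 114 on the 7 lists together and 11033 of 20666 for all genes. The neural progenitor markers, the companions of Nes, had 10 of 11 tested, with no call and a median of -0.04, from Cdh2 at -0.41 to Slc1a3 at 0.24. The neuronal cytoskeleton and neuron markers had 25 of 26 tested, 1 rise and a median of 0.10, from Crmp1 at -0.78 to Map1b at 0.83. Planar polarity had 13 of 13 tested, 2 rises (that of Prickle2 seen in Cy5 alone) and a median of 0.09, from Dvl2 at -0.30 to Prickle2. The neural induction signals with Rest had 14 of 16 tested, no call and a median of 0.03, from Gli1 at -0.69 to Bmp4 at 0.36.

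**Figure D4:**
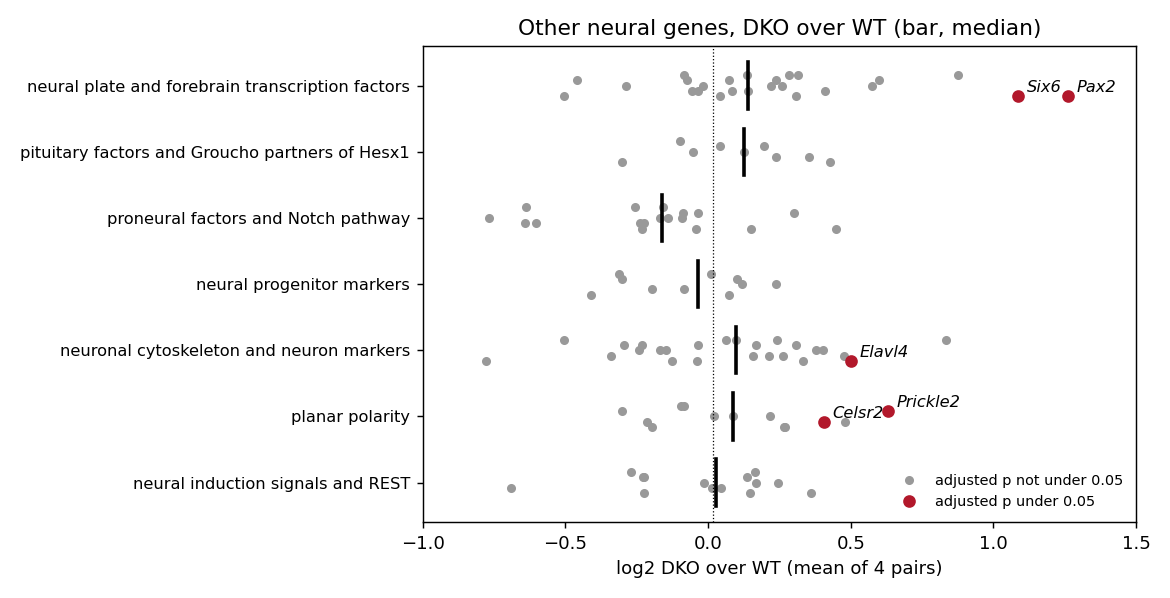
Each point is a tested gene on 1 of 7 neural lists, placed by its mean log2 DKO over WT ratio (x axis), with genes past an adjusted p under 0.05 in red, list medians as bars and the median of all genes as a dotted line. The 5 red genes all lie above 0, and 109 of the 114 genes did not pass. Of the red genes, Six6, Pax2 and Prickle2 were well above background in Cy5 alone, and nothing is read from their calls.

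In T2KO over T1KO no gene on these lists passed the adjusted threshold. Sox3, a SoxB1 factor of the neural plate, had the lowest value of the lists, -2.16 ± 0.29 (SE), and Gli1, a target of hedgehog signals, the highest, 1.99 ± 0.25. In T1KO minus male WT the values ran from Hes5 at -0.94, a Notch target, to Bmp4 at 0.85, and in male DKO minus T2KO from Olig2 at -1.50 to Sox3 at 1.32. Between male and female pairs they ran from Fgf8 at -2.31 to Mapt at 1.05. The median of the endoderm markers was 0.24 for DKO over WT and -0.48 for T2KO over T1KO, and that of the ES cell markers -0.02 and 0.44. The endoderm and ES cell medians of the T2KO/T1KO pair moved beside its Hesx1, Tubb3 and Celsr3 values, and their part in them was not tested. Of the mesoderm and streak markers Eomes rose by 0.88 ± 0.15 in DKO over WT (adjusted p = 0.0459), and T, Evx1 and Hand1 were not well above background on every array.

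The likeness of patterns was described by Pearson's r over the 11 lines, among 16105 genes well above background on every array, lines that share slides, dyes and genotypes. The DKO and WT lines among the 11 were those on which the members were chosen, so the patterns are not independent of that choice. For Celsr3 the closest were Bdh1 (0.95), Tet1 (0.94) and Slbp (0.94), and after centring within each dye Tet1 had 0.93. Tet1 is itself the gene removed in the DKO and T1KO lines, so its level follows the genotypes. Hesx1 was closest to Lck (0.94), Wdr62 (0.93) and Eif4ebp3 (0.92), and Sox11 to Mrps18b (0.95), Irf3 (0.95) and Bola2 (0.94), which fell to 0.82, 0.83 and 0.86 within dyes. Tubb3 lay closest to Nup43 (0.91), Tmem68 (0.89) and Zp3 (0.88), Nes to Ahr (0.94), Gpr27 (0.93) and Snrpd1 (0.89), Map2 to Filip1l (0.94), Hormad1 (0.91) and Samd9l (0.90), and Sox1 to Zmym1, Sde2 and 5430439M09Rik (0.93 each). Among the members, Hesx1 and Celsr3, both chosen as lower in DKO lines, were most alike. Their r was 0.87 over the 11 lines and 0.84 within dyes. Sox11 and Tubb3, which were both lower in DKO over WT, had r = 0.09.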

How the data were processed

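RNA of 11 labelled mouse ES cell lines was read on 10 two-colour arrays. The deposited scanner files give the mean and local background intensity of each spot, per the file headers (Feature Extraction 10.1.1.1), as well as the software's processed intensities and its log10 ratio of Cy5 over Cy3. The authors' deposited values, for 31595 probes and 7 of the members, behaved as log2 of Cy5 over Cy3 (r = 0.925 to 0.971 with the scanner ratios above a level of 9, column medians 0.00178 to 0.00752). How those values were normalised or centred is unknown here, and they served as an alternative.

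Intensities were corrected with normexp (offset 50) and normalised by loess and Aquantile in limma 3.58.1 on R 4.3.3, reading files through data.table (release 1.17.8) and jsonlite 2.0.0, and plots were drawn with matplotlib. The normexp fit left out gene spots below local background, between 71 and 122 an array, a choice that followed earlier results of these data. Control spots had no weight, and between 173 and 337 outlier spots an array were left out. Probes were named through RefSeq accessions where possible (26581 of 39429), and 25869 probes, for 20666 genes, were tested. Positions are those of the array design (mm9), and promoter sequences come from RefSeq (GRCm38). No annotation of exons was used, and the Pax6 stop codon and alternative exon were named from general knowledge.

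Comparisons were fitted with limma's lmFit and eBayes, two-sided, with Benjamini-Hochberg adjustment over all genes at 0.05, after repeat arrays of the same lines had been averaged. In the single-line comparisons, lines or pairs of other groups entered for the spread. The p-values measure the spread between lines or pairs, and hold no spread between T2KO lines, of which there was 1. Under the random block they also take in repeat arrays of the same lines. The number of lines and pairs limits the precision. The code was tested on simulated data. Named beside the members were the genes of 7 neural lists past the threshold in any comparison, the extremes of each list, and for each member well above background on every array the 3 genes most alike in pattern. The members and lists were chosen with earlier results of these data known. Alternatives were other background models, the scanner's own ratios, median centring, other probe filters, an intensity trend, leaving out pairs or lines, sex as a covariate, unpaired channels, a random block and the authors' values.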

Additional observations from a re-analysis of the deposited data

Results flagged for a closer look

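The Nes ratio of the pair DKO 51 and WT 6, -0.80, lay apart from those of the other 3 DKO/WT pairs, which were between -0.10 and -0.05. The Tubb3 level of WT 92, 9.73, lay apart from the other 3 WT lines at 10.67 to 10.83, and it is the line through which DKO and WT levels overlap. These were 2 of 27 groups of 4 values examined with Dixon's ratio, and chance flags about 1 group in 20.

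The Cy5 channel of the 2 arrays that carried T1KO 99 held the sample excluded by the labels for a false genotype. In that sample Hesx1 averaged 10.69, above the WT lines at 9.31 to 9.86. Tubb3 averaged 11.04 there, against 9.73 to 10.83 in WT lines, and Map2 8.60, against 7.25 to 8.04. Neurog2 averaged 7.00, against 6.39 to 6.52 in WT lines, where its probe was not well above background. The WT values come from Cy3, so dye and sample cannot be told apart.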

How the results depend on the processing

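The number of members past the threshold in DKO over WT, which the choice of the genes fixes and which is no test of them, was 5, and it was 2 with normexp fitted on all spots, 3 with the scanner software's own ratios, 3 with only probes well above background on all arrays and 3 in the authors' table, which lacks 2 members. It was 0 with an intensity trend in eBayes, 0 with sex as a covariate and 0 to 0 without each pair in turn, where 3621 to 4882 genes kept an unadjusted p under 0.05. In T2KO over T1KO it was 0, and 3 with every array kept and each pair taken as a random block, where Hesx1 (2.08), Tubb3 (1.59) and Celsr3 (1.01) passed. The lines of an array are paired by hybridisation, and with no replicate block, the channels being unpaired, 4 members passed. Of all genes, 959 passed in DKO over WT (62.6% risen), against 363 with normexp on all spots, 688 with scanner ratios (75.7% risen), 439 with probes above background on all arrays, 532 in the authors' table, 1476 with the random block and 7216 with median centring (92.4% risen), which moved the median of all genes to 0.20.

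Hesx1, Sox11, Tubb3 and Celsr3 kept their sign in DKO over WT, the comparison on which they were chosen, under all alternatives run. Neurog2 was positive throughout, at 0.49 to 2.53, the highest with scanner ratios. Its probe passed the filter on dim probes only through the Cy5 lines. Its place among the tested genes thus rests on the lines in which it read higher, and nothing is read from its sign. In the same comparison Sox1 turned to -0.0668 with scanner ratios, -0.0518 with the mean of its probes and -0.0401 in the authors' table, Nes to 0.0519 with median centring, and Map2 to -0.16 without the pair of DKO 60 and WT 7. In T1KO minus male WT, Sox11 turned to -0.16 with normexp on all spots, and to -0.26 to 0.38 without single lines. Map2 turned to -0.0225 (all spots), -0.0339 (scanner ratios) and -0.0345 (median centring), and lay at -0.10 to 0.11 without single lines. In male DKO minus T2KO, with scanner ratios, Sox1 turned to -0.0846 and Map2 to 0.0189. Without single DKO lines, Map2 lay at -0.18 to 0.12 and Nes at -0.0201 to 0.74. In male minus female DKO over WT, without single pairs, Pax6 lay at -0.54 to 0.22, Nes at -0.72 to 0.00771, Tubb3 at -0.46 to 0.12, Hesx1 at -0.73 to 0.23, Map2 at -0.91 to 0.39 and Celsr3 at -0.39 to 0.16. In T2KO over T1KO, Map2 was -0.0628 to 0.26 without single arrays. The cause of these turns was not tested. With 1 T2KO line and no dye swap, the sizes for dim probes such as Neurog2 stay uncertain.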

Other observations

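In the excluded sample, whose genotype the labels do not give, the remaining members read on its 2 arrays 8.95 and 9.11 for Celsr3, 9.33 and 9.34 for Sox11, 11.07 and 11.07 for Nes, 7.25 and 7.10 for Pax6, and 7.36 and 7.28 for Sox1. They are given as values only.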
